A study of Homo sapiens with 4 samples.

Results

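The FGF receptor group was described through 8 genes of the 17490 that the 4 libraries list: the receptor tyrosine kinase genes FGFR1, FGFR2, FGFR3 and FGFR4, the receptor-like gene FGFRL1, the ligand gene FGF2, the ligand carrier gene FGFBP1 and the adaptor gene FRS2. They were chosen by name, matched through their NCBI Gene IDs, and all 8 had a row in all 4 libraries. Messenger RNA had been sequenced from H1975 and HCC827, established human lung adenocarcinoma cell lines whose growth depends on mutant EGFR. The groups were H1975 cells sensitive to osimertinib, H1975 cells resistant to osimertinib, HCC827 cells sensitive to gefitinib and HCC827 cells resistant to gefitinib, with 1 library in each. Osimertinib and gefitinib are both inhibitors of the EGFR kinase. The labels do not say how the resistant cells were derived, whether they are clones, or whether drug was present at harvest, and line and drug cannot be told apart.

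FGF receptors are cell surface kinases that pair up when an FGF ligand and heparan sulfate bind them together. The adaptor FRS2 sits at the receptor and passes the signal to GRB2, SOS and the RAS-ERK cascade, which in turn induces the SPRY and DUSP6 feedback inhibitors and the ETV4 and ETV5 transcription factors. In lung cancers with mutant EGFR, FGF receptor signalling is known as one of the routes that can bypass the blocked receptor.

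Library totals, sensitive then resistant, were 22145163 and 22217897 expected counts for H1975, and 10934558 and 11034837 for HCC827. All 5 epithelial markers checked (EPCAM, CDH1, KRT8, KRT18 and KRT19) had at least 1 FPKM in 3 libraries, and 4 of them did in resistant H1975, where CDH1 was at 0.73 FPKM. Their summed level was lower in resistant cells, at 1850 and 820 FPKM in sensitive and resistant H1975 and 6092 and 1796 FPKM in HCC827. EPCAM went from 150 to 2.85 FPKM in H1975 and from 207 to 29.9 in HCC827, and KRT19 from 481 to 6.82 and from 1741 to 297. The part of this difference in epithelial transcripts in the ratios of the 8 genes was not tested. All 3 lung lineage markers (NKX2-1, NAPSA and SFTA2) had at least 1 FPKM in sensitive HCC827. In each H1975 library 1 of them did, and in resistant HCC827 none did. SFTA2 was not listed in H1975. Summed over their lists, 5 fibroblast markers gave 1.88 to 15.3 FPKM and 3 endothelial markers 0.50 to 1.29 FPKM. The 4 blood cell markers summed to 75.7 to 105 FPKM, of which CD68, a lysosomal protein gene, made 74.3 to 100.2, while PTPRC, the defining leukocyte marker, was at 0.27 to 0.50. LYZ had 0.94 and 0.45 FPKM in sensitive and resistant H1975 and 4.57 and 4.25 in HCC827, and CD3D reached at most 0.19.

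Values are given as FPKM, reads scaled by transcript length and library total, for levels, and as log2 ratios of normalised expected counts for differences. Square brackets hold 95% exact intervals that cover counting error only. With 1 library a group there is no replicate check, so no difference within a line has a p-value. A gene was considered in a line if 1 or both of its libraries had 1 FPKM or more together with 20 counts or more, and called higher or lower if it differed by at least 2-fold with an interval that excluded 0. In bulk libraries, fewer expressing cells and less RNA per cell cannot be told apart. The H1975 and HCC827 libraries appear to have been counted on different transcript annotations. RefSeq symbols matched 98.6% of genes in H1975 and 99.8% in HCC827. The lines were also scaled separately, so levels set across the lines are a description.

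FGFBP1 was the only one of the 8 genes called in both lines, and FGFR4 was the only one whose intervals lay on opposite sides of 0 in the lines. The 250 bases before their annotated starts are shown to set the sequence context of these genes beside their values. Sequences are from RefSeq, build GRCh38.p14: FGFBP1 at chr4:15938741-15938990, minus strand, and FGFR4 at chr5:177086665-177086914, plus strand, each 5′ to 3′. Capitals mark matches, on either strand, to the AP-1 motif TGANTCA, the GC box GGGCGG and the E-box CACCTG bound by ZEB and SNAI factors.
FGFBP1: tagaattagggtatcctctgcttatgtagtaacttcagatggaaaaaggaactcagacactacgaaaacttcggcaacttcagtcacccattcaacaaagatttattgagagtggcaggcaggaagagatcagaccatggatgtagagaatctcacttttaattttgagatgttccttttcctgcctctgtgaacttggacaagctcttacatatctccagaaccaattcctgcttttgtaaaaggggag
FGFR4: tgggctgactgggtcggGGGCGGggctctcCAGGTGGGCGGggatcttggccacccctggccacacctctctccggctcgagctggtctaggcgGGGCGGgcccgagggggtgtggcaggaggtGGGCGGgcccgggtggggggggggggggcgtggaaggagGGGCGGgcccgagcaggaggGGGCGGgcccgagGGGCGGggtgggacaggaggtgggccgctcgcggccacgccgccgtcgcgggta
The FGFBP1 window held none of the 3 motifs and was 40.8% G or C, above 14.1% of the 35116 promoter windows in the table. The FGFR4 window shown was 79.6% G or C, above 96.3% of windows, and held 7 GC box matches and 1 E-box match, which overlaps a GC box. The table holds another FGFR4 window, at a later start, that was 57.2% G or C, above 47.2% of windows, and held none of the 3 motifs. Over all windows of this length, 6.57% held the AP-1 motif, 42.6% the GC box and 17.5% the E-box. Promoter windows were matched for 7 of the 8 genes, all but FGFR1, and no AP-1 match was found in any of those 7 genes' windows. A letter match is not a binding site, and its absence says nothing about the factor.

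**Figure D1:**
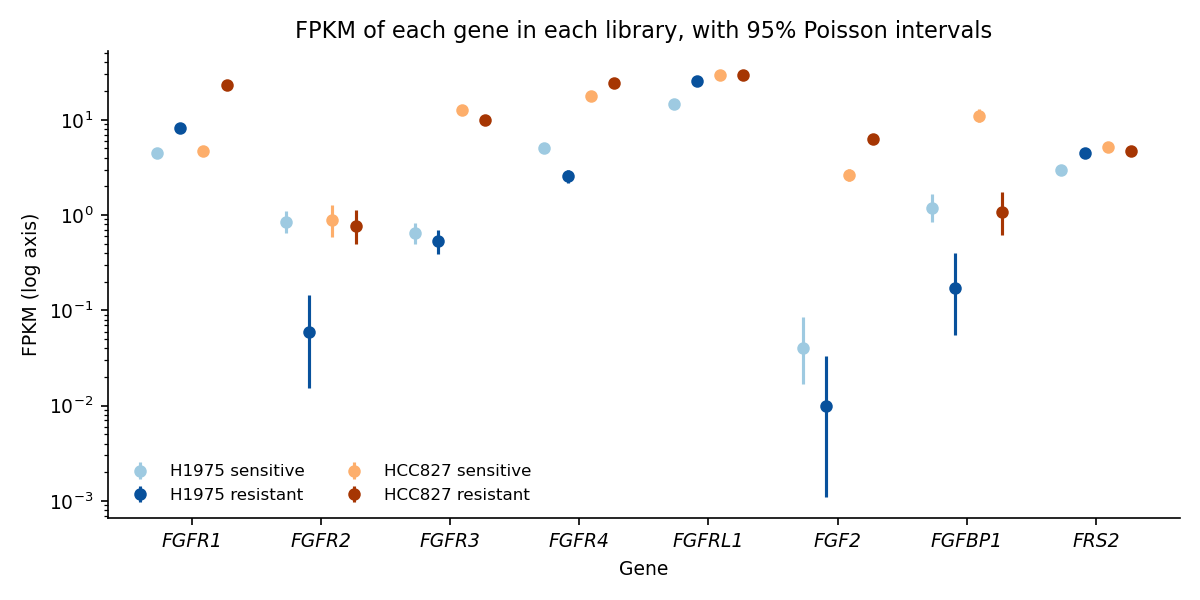
FPKM on a log axis for each of the 8 genes in the 4 libraries; points are single libraries and bars are 95% exact Poisson intervals. FGFR1 was highest in resistant HCC827 at 23.3 FPKM, FGF2 was at or below 0.04 FPKM in both H1975 libraries, and FGFBP1 was lower in the resistant library of each line.

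FGFR1, the receptor kinase that binds FGF2 with high affinity, was at similar FPKM in the sensitive cells of both lines and higher in the resistant cells of both. It had 4.43 FPKM in sensitive H1975, 8.22 in resistant H1975, 4.75 in sensitive HCC827 and 23.3 in resistant HCC827. In order of level, the counting intervals of the sensitive libraries overlapped (4.04 to 4.85 and 4.21 to 5.32 FPKM), and the resistant H1975 and resistant HCC827 libraries stood above them and apart from each other. The transcript length used was 4754 bases in sensitive H1975 and 5501 in sensitive HCC827. The overlap of the sensitive libraries therefore holds for length-scaled values. The HCC827 difference was 4.75-fold, a log2 ratio of 2.25 [2.06, 2.44], and was called. The H1975 difference was 1.91-fold, a log2 ratio of 0.93 [0.77, 1.10]; its interval excluded 0 but spanned the 2-fold line, so the gene was not called there. FGFR1 counts were not whole in any library, as can arise where RSEM shares reads between genes.

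FGFR2, whose splice forms distinguish epithelial from mesenchymal cells, was the lowest of the 4 receptor kinases in HCC827 and in resistant H1975. It had 0.85 FPKM in sensitive H1975, 0.06 in resistant H1975, 0.88 in sensitive HCC827 and 0.77 in resistant HCC827. The other 3 levels overlapped in their counting intervals, and resistant H1975 lay below them. The H1975 libraries held 56.85 and 4.28 expected counts, a log2 ratio of −3.82 [−5.75, −2.39]. As neither reached 1 FPKM, the gene was not considered and this 14.2-fold difference was not called. In HCC827 the log2 ratio was −0.23 [−1.07, 0.60], and no difference was detectable at 27.74 and 24.97 counts.

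FGFR3 separated the lines more than the drug response. It had 0.65 and 0.53 FPKM in sensitive and resistant H1975, under the filter, and 12.7 and 9.96 FPKM in sensitive and resistant HCC827. The H1975 intervals overlapped (log2 ratio −0.30 [−0.86, 0.26]), and the HCC827 libraries differed by 1.32-fold, with resistant cells lower (−0.40 [−0.58, −0.23]). Neither line reached a call.

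FGFR4, a receptor best known for binding FGF19 with the co-receptor KLB, went in opposite directions in the lines. It had 5.08 FPKM in sensitive and 2.54 in resistant H1975, against 17.95 in sensitive and 24.4 in resistant HCC827. Both HCC827 levels stood above both H1975 levels. The resistant library was 1.90-fold lower in H1975 (log2 ratio −0.92 [−1.20, −0.66]) and 1.31-fold higher in HCC827 (0.39 [0.23, 0.54]). Neither was called from counts, although the deposited FPKM values of H1975 lay exactly on the 2-fold line. The difference between the lines was not tested, since 1 library a group leaves no spread to test it with.

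The mix of receptor kinase transcripts differed between sensitive and resistant cells of each line. FGFR1 made up 40.2% of the FPKM summed over FGFR1 to FGFR4 in sensitive H1975 and 72.4% in resistant H1975, while the sum itself was 11.0 and 11.4 FPKM. In HCC827 FGFR1 made up 13.1% of the sum in sensitive and 39.9% in resistant cells, and the sum was 36.3 and 58.5 FPKM. FGFR4 held 46.1% in sensitive and 22.4% in resistant H1975, and 49.5% and 41.8% in HCC827, where FGFR3 went from 35.0% to 17.0%. FGFR4 was the most abundant receptor kinase transcript in both sensitive libraries and in resistant HCC827, and FGFR1 in resistant H1975. In sensitive H1975 the intervals of FGFR4 (4.55 to 5.65 FPKM) and FGFR1 overlapped, as did those of FGFR4 (22.8 to 26.1 FPKM) and FGFR1 (22.1 to 24.6 FPKM) in resistant HCC827.

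**Figure D2:**
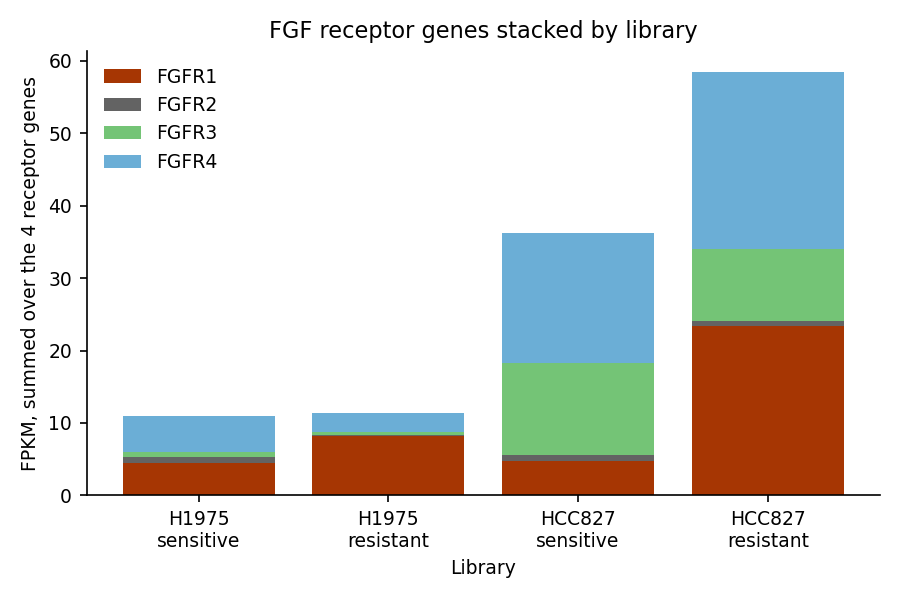
FPKM of the 4 receptor kinase genes stacked in each library, with 1 library per bar. The bars reach 11.0, 11.4, 36.3 and 58.5 FPKM, and the FGFR1 block is larger in the resistant than in the sensitive bar of each line.

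FGFRL1 encodes a receptor-like membrane protein that binds FGF ligands but lacks the kinase domain, and it was the most abundant of the 8 genes in every library. It had 14.7 FPKM in sensitive H1975, 25.5 in resistant H1975, 29.84 in sensitive HCC827 and 29.86 in resistant HCC827. The sensitive H1975 level stood below the rest, and the HCC827 levels were alike within counting error. The log2 ratio was 0.81 [0.70, 0.92] in H1975, or 1.75-fold, and −0.06 [−0.18, 0.07] in HCC827.

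FGF2, a ligand stored on matrix heparan sulfate, was nearly absent from H1975 and present in HCC827. Sensitive and resistant H1975 had 0.04 and 0.01 FPKM from 6.71 and 2.18 expected counts, too few to compare (log2 ratio −1.80 [−5.10, 0.59]). Sensitive HCC827 had 2.65 and resistant HCC827 6.21 FPKM, a 2.26-fold difference that was called (1.18 [0.93, 1.42]). The lower limit of that interval lies just under 2-fold. FGF2 overlaps NUDT6 on the opposite strand, its counts were not whole, and the labels do not say whether strand was used in counting. NUDT6 had 5.22 and 10.6 FPKM in sensitive and resistant HCC827 and 10.2 and 6.54 in H1975; whether reads of one gene entered the other was not tested.

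FGFBP1, a secreted carrier that releases FGF2 from the matrix, was lower in the resistant cells of both lines. It had 1.20 FPKM in sensitive and 0.17 in resistant H1975, and 11.0 FPKM in sensitive and 1.07 in resistant HCC827. Sensitive HCC827 stood well above the rest, sensitive H1975 and resistant HCC827 overlapped (0.84 to 1.66 and 0.61 to 1.74 FPKM), and resistant H1975 was lowest. The counts were 36 and 5 in H1975, 7.16-fold lower with a log2 ratio of −2.84 [−4.55, −1.49], and 163 and 16 in HCC827, 10.7-fold lower with −3.42 [−4.26, −2.67]. In each line the gene passed the filter only through its sensitive library.

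FRS2, the membrane adaptor of the receptors, varied least of the 8 genes across the 4 libraries. It had 3 and 4.50 FPKM in sensitive and resistant H1975 and 5.15 and 4.76 in HCC827. Only sensitive H1975 stood apart by its interval (2.73 to 3.29 FPKM). The log2 ratio was 0.60 [0.43, 0.77] in H1975, or 1.51-fold, and −0.17 [−0.38, 0.04] in HCC827.

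In H1975, then, 5 of the 8 genes were considered and FGFBP1 alone was called, as lower; across all 11872 genes considered there, 3.21% were called higher and 8.56% lower. In HCC827, 7 of the 8 were considered, FGFR1 and FGF2 were called higher and FGFBP1 lower, beside 7.05% higher and 11.0% lower among 11890 genes. The genes that were not considered were FGFR2 in both lines and FGFR3 and FGF2 in H1975.

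**Figure D3:**
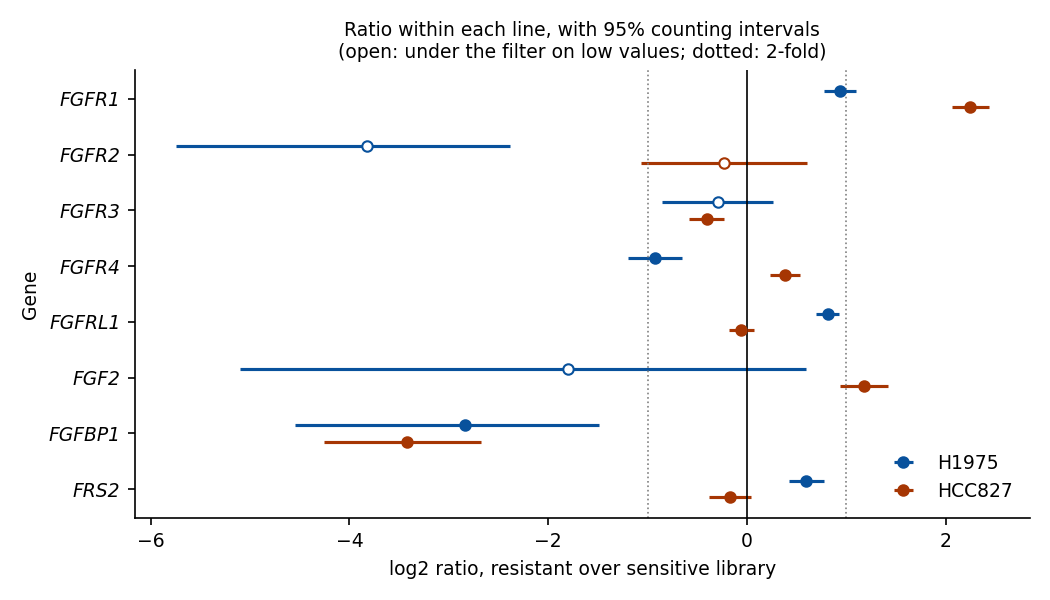
The log2 ratio of the resistant over the sensitive library for each gene and line, with 95% counting intervals; open points were under the filter on low values and dotted lines mark 2-fold. FGFBP1 lies beyond the lower line in both lines of cells, FGFR1 at 0.93 in H1975 and 2.25 in HCC827, and FGFR4 on opposite sides of 0.

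A test over both lines took each line as a block and compared resistant with sensitive libraries across 13036 genes with edgeR's quasi-likelihood test. FGFR1 was higher in 2 of 2 lines with a fitted log2 fold change of 1.61 (unadjusted p = 0.010, adjusted p = 0.298), and FGFBP1 was lower in 2 of 2 lines with −3.14 (unadjusted p = 0.0023, adjusted p = 0.201). Neither passed the 0.05 threshold after Benjamini-Hochberg adjustment, and nor did any of the 13036 genes (0%), of which 1352, or 10.4%, had an unadjusted p under 0.05. DESeq2 with the same block gave adjusted p = 0.0085 for FGFR1 and 0.0061 for FGFBP1, among 448 genes called, 3.40% of the 13158 it adjusted. Under edgeR the other 6 genes had adjusted p-values of 0.613 to 0.869. With the line as block, the 1 residual degree of freedom is how far the lines differ in their resistant-over-sensitive ratio. Both methods also share information on spread across genes. Nothing in the labels says that separate cultures were sampled.

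FGFR1 was set beside its neighbours on chromosome 8, taking the 4 considered genes on either side in the RefSeq gene order. In HCC827 the 8 neighbours had log2 ratios from −0.51 for PLPP5 to 0.78 for TACC1, the next considered gene on one side, with a median of 0.36. In H1975 they ranged from −0.24 for TM2D2 to 0.65, again for TACC1, with a median of 0.19. None of the neighbours was called in either line, and FGFR1 lay above all of them in both.

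**Figure D4:**
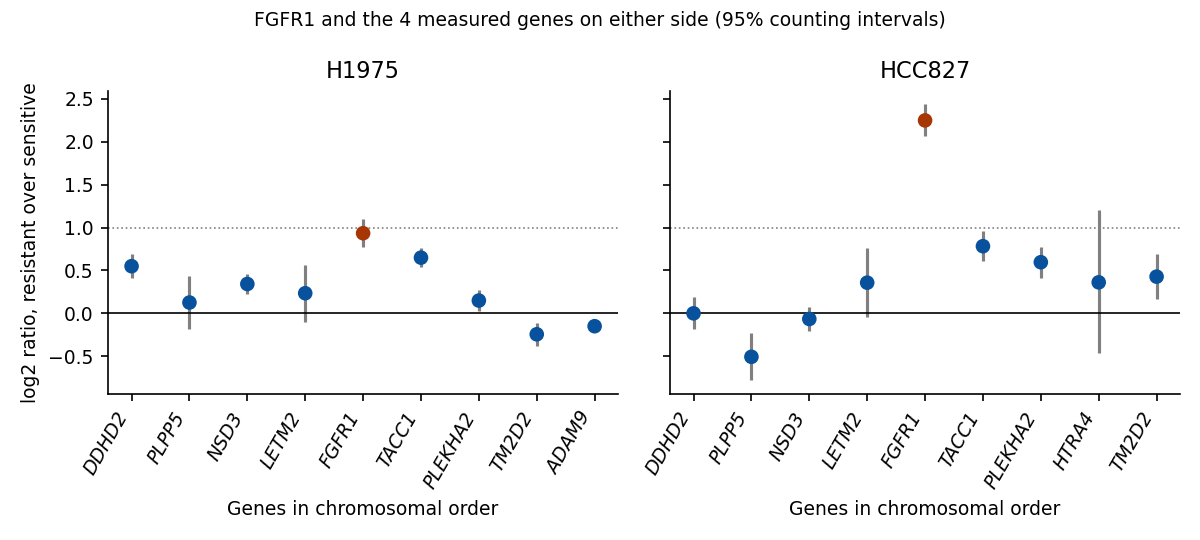
The log2 ratio, resistant over sensitive, of FGFR1 and the 4 considered genes on either side in chromosomal order, in H1975 and HCC827, with 95% counting intervals and a dotted line at 2-fold. FGFR1 is the highest point in both panels, at 0.93 and 2.25, and TACC1 beside it is next, at 0.65 and 0.78.

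The rest of the pathway was read from a list of 73 genes in 6 roles. In H1975, 40 were considered, 1 was called higher (2.50%) and 7 lower (17.5%), with a median log2 ratio of −0.35. Over all genes considered there, 3.21% were called higher and 8.56% lower, with a median of 0.0014. In HCC827, 42 were considered, 4 were called higher (9.52%) and 10 lower (23.8%), with a median of −0.02. Over all genes considered there, 7.05% were called higher and 11.0% lower, with a median of −0.0012. None of the 45 list genes in the test over both lines passed with edgeR (lowest adjusted p = 0.202). Of them, 6, or 13.3%, had an unadjusted edgeR p under 0.05, beside 10.4% of all 13036 genes tested.

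Among 21 other FGF genes, most were unlisted or near 0: 11 were listed in H1975 and 12 in HCC827, and 3 were considered in each. FGF5, a secreted ligand, had 0.45 FPKM in sensitive and 4.35 in resistant HCC827, 9.57-fold higher (log2 ratio 3.26 [2.68, 3.90]), and passed the filter only through the resistant library. In H1975 it was at 0.21 and 0.26 FPKM and not considered. FGF13, which encodes an intracellular FGF homologous factor that regulates sodium channels, was lower in resistant cells of both lines, at 3.52 and 1.63 FPKM in H1975 (−1.15 [−1.54, −0.77]) and 9.76 and 4.90 in HCC827 (−1.10 [−1.42, −0.79]). FGF11, of the same intracellular group, was called lower in HCC827 (−1.26 [−2.28, −0.31]) and had −0.73 in H1975. In HCC827 it had 1.14 and 0.53 FPKM from 32 and 14 counts, and passed the filter only through the sensitive library. FGF7, a ligand of the epithelial FGFR2 form, had 1.12 and 0.79 FPKM in H1975 and was not called. FGF19 had 7 counts in sensitive H1975 and none in the resistant library, under the filter.

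Of 11 genes for co-receptors and other binding proteins, 2 were considered in H1975 (L1CAM and FLRT2) and 2 others in HCC827 (FLRT1 and FLRT3). None of the 11 was therefore considered in both lines. L1CAM, a neural adhesion molecule that can bind FGF receptors, had 18.6 FPKM in sensitive and 55.5 in resistant H1975. It was called higher there (log2 ratio 1.59 [1.51, 1.66]). In HCC827 it was under the filter at 0.11 and 0.27 FPKM, with a log2 ratio of 1.25 [−0.19, 2.91]. FLRT2, a membrane protein of the FGF receptor-binding FLRT family, was lower in resistant H1975 (7.42 and 2.91 FPKM, log2 ratio −1.30 [−1.46, −1.15]). In HCC827 FLRT2 was under the filter at 0.32 and 0.59 FPKM and went the other way (0.80 [0.12, 1.51]). FLRT3 was considered in HCC827 only, with 5.50 and 7.97 FPKM, and was not called. KLB, the FGFR4 co-receptor, was under the filter in all 4 libraries at 0.10 to 0.45 FPKM, and KL was not listed.

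Most heparan sulfate genes were not called, 12 of 14 in H1975 and 11 of 14 in HCC827. In H1975, 2 of 14 were lower, beside 8.56% of all genes: GPC1, a cell surface proteoglycan (33.7 and 12.7 FPKM; −1.40 [−1.501, −1.293]), and HS3ST1, a sulfotransferase (138 and 5 counts; −4.78 [−6.42, −3.52]). In HCC827, 3 of 14 were higher, beside 7.05% of all genes: the proteoglycan genes GPC4 (1 and 50 counts; 5.58 [3.03, 10.91]), GPC6 (2.16 and 5.42 FPKM; 1.27 [1.01, 1.54]) and SDC3 (4.74 and 11.1 FPKM; 1.16 [0.96, 1.38]). HS3ST1 and GPC4 passed the filter only through the library where they were high. The list's median log2 ratio was −0.36 in H1975 and 0.30 in HCC827. SDC4, at 274 and 239 FPKM in H1975 and 69.9 and 73.1 in HCC827, was the most abundant proteoglycan gene of the list in H1975 and was not called.

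Few adaptors below the receptors reached 2-fold. None of 9 considered in H1975 was called, beside 3.21% higher and 8.56% lower over all genes considered. In HCC827 1 of 10 was called, as lower, a share near the 11.0% of all genes, of which 7.05% were higher. This was GAB1, a docking protein, with 4.71 and 1.06 FPKM (−2.22 [−2.56, −1.89]). GRB2 had log2 ratios of −0.10 in H1975 and −0.11 in HCC827, and PLCG1, which binds activated FGF receptors directly, had 0.10 and 0.87 [0.70, 1.03]. Several others differed by less than 2-fold with intervals that excluded 0, among them PTPN11 in H1975 (0.61 [0.55, 0.66]) and SOS1 in HCC827 (−0.65 [−0.81, −0.50]).

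Feedback inhibitors and target genes of ERK signalling were lower in resistant HCC827, in 6 of 9 considered, with none higher and a median of −1.12; over all genes considered, 11.0% were lower and 7.05% higher. DUSP6 had 20.2 and 1.27 FPKM (−4.04 [−4.49, −3.61]), SPRY4 5.36 and 1.99 (−1.48 [−1.81, −1.16]), ETV5 23.3 and 10.6 (−1.20 [−1.36, −1.04]) and SPRY1 8.26 and 3.79 (−1.15 [−1.49, −0.82]). The other called genes were ETV4 (−1.12) and SPRY2 (−1.04). In H1975 SPRY4 alone of 8 was called, as lower (−1.20 [−1.54, −0.88]), a share near the 8.56% of all genes, and DUSP6 had −0.83. SPRY4 in H1975 had 2.29 and 0.99 FPKM and passed the filter only through the sensitive library. EGFR signals through the same cascade, so these genes are not particular to FGF receptors.

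Of the splicing regulators ESRP1 and ESRP2, which set the epithelial form of FGFR2, ESRP1 was lower in resistant cells of both lines and ESRP2 in H1975. ESRP1 had 45.3 and 0.01 FPKM in H1975 (log2 ratio −11.89 [−17.19, −9.41]) and 103 and 2.26 FPKM in HCC827 (−5.59 [−5.91, −5.29]). In H1975 it passed the filter only through the sensitive library, and the resistant library held 1 count. ESRP2 had 18.3 and 7.45 FPKM in H1975 (−1.26 [−1.40, −1.12]) and 36.7 and 37.6 in HCC827. RBFOX2 and PTBP1, which also act on this exon choice, were not called. The files give 1 value per gene, so the FGFR2 forms themselves were not analysed here.

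**Figure D5:**
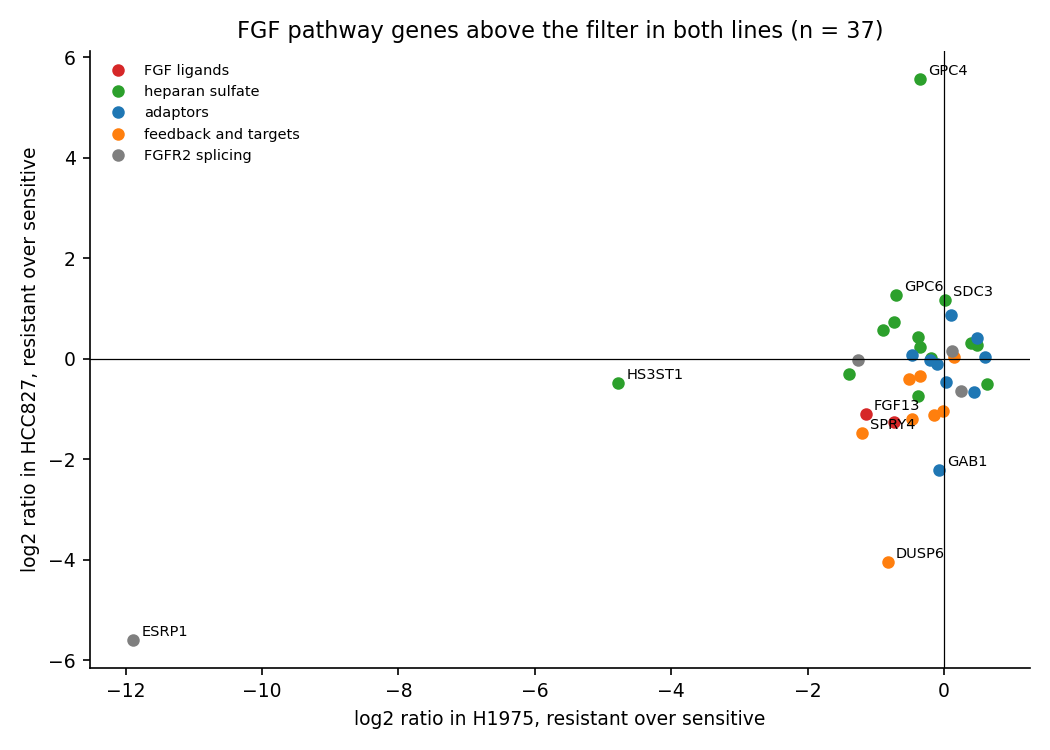
The log2 ratio, resistant over sensitive, in H1975 (x axis) against HCC827 (y axis) for the 37 pathway genes considered in both lines, coloured by role; the lines share no library. ESRP1 lies far down in both, DUSP6 and GAB1 fall mainly on the HCC827 axis, and HS3ST1 on the H1975 axis.

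The patterns most like those of 7 of the genes were sought among 12238 genes listed in all 4 files with at least 1 FPKM in 1 library, by the distance between centred log2(FPKM + 0.1) values over the 4 libraries; FGFR2 never reached 1 FPKM and was left out. FGFR1 lay nearest to TGM4 (distance 0.25), SP8 (0.28) and CLMP (0.40); TGM4 and SP8 did not exceed 1.19 FPKM, and CLMP had 2.59, 4.68, 2.50 and 9.65 FPKM in the order H1975 sensitive and resistant, HCC827 sensitive and resistant. FGF2 lay nearest to IGDCC4 (0.17), COL4A1 (0.31) and MACROD2 (0.39), and FGFBP1 to MACC1 (0.30), VIPR1 (0.52) and GRTP1 (0.57). FGFR4 was closest to DIPK1B (0.13) and GPRC5A (0.14), FGFR3 to H2AC25 (0.21), FGFRL1 to KYAT1 (0.06) and FRS2 to CNOT2 (0.02). With 4 libraries, many genes can share such a pattern.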

How the data were processed

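Messenger RNA was profiled in 4 libraries, 1 per group, with groups taken from the drug response label. RNA was extracted with TRIzol, per the labels' protocols. HISAT2, Bowtie2 and RSEM were used with hg19, per the submitters' processing notes; their versions are not recorded in the labels. Per the file headers, the authors deposited RSEM expected counts, which are estimated counts and not normalized, FPKM values and a transcript length for each NCBI Gene ID. Symbols came from RefSeq (GRCh38.p14), which matched 98.6% of genes in H1975 and 99.8% in HCC827.

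Counts were rounded. Within each line, TMM factors were computed with edgeR 4.0.16 on the genes considered, and ratios carry exact Clopper-Pearson intervals of the conditional binomial; reads are not unique molecules, so intervals and floors cover counting error only. A library at 0 was set to 3 counts or the count at 0.01 FPKM, whichever was larger. Both lines together were tested by edgeR's quasi-likelihood method with TMM, filterByExpr and the line as block, two-sided; the pairing comes from the cell line. DESeq2 1.42.0 was an alternative. The edgeR test over both lines was also run on simulated counts. The members, lists and rules were chosen with earlier results of these data known. Named pathway genes were the called genes with the largest ratios in each role, up to 4 in each direction, and genes a member's result turns on; the others named, such as SDC4, were chosen after their values were seen.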

Additional observations from a re-analysis of the deposited data

Results flagged for a closer look

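FGFR4 was the 1 gene of the 8 whose resistant library lay below the sensitive one in H1975 (log2 ratio −0.92) and above it in HCC827 (0.39), with both counting intervals excluding 0. It was singled out because the directions differ between the lines. The difference was not tested. Line and drug differ together, and the annotation appears to differ with them.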

How the results depend on the processing

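All 64 recomputed member ratios within a line (DESeq2 size factors, total counts, deposited FPKM, a floor of 1 count) stayed inside their counting intervals. The floor could not move any member ratio, since it acts only on a library at 0 and no member had one. In H1975 the members called went from 1 to 2 with the deposited FPKM ratio (adding FGFR4). They went to 2 with no filter (adding FGFR2) and to 5 at 1.5-fold. Pathway genes called went from 8 to 15 at 1.5-fold and to 2 at 4-fold. Over all 11872 genes considered in H1975, 381 were called higher and 1016 lower in the main setting. With the deposited FPKM ratio these were 376 and 1038, at 1.5-fold 1105 and 1754, and at 4-fold 97 and 457. With no filter they were 585 and 1552 of 16830. In HCC827 pathway genes called went from 14 to 5 at 4-fold, while the members called were 3, or 2 at 4-fold. Over all 11890 genes considered in HCC827, 838 were called higher and 1302 lower in the main setting, and 309 and 458 at 4-fold. Over both lines, genes past the adjusted threshold went from 0 with edgeR to 448 with DESeq2 (113 higher, 335 lower), and stayed at 0 under the other 4 alternatives. Without the line as a block (no replicate block) the FGFR4 value turned from −0.24 to 0.21, and adjusted p was 0.9996 for FGFR1 and FGFBP1; under the other edgeR alternatives it was 0.310 to 0.340 for FGFR1 and 0.218 to 0.241 for FGFBP1. Leaving out 1 line leaves no residual degree of freedom and gives values from −0.92 to 0.39 for FGFR4, −0.057 to 0.81 for FGFRL1, −1.80 to 1.18 for FGF2 and −0.17 to 0.60 for FRS2; the other 4 genes kept their direction. The cause of these shifts was not tested. Few counts limit FGF2 in H1975, at 6.71 and 2.18 in sensitive and resistant cells. FGFR2 in H1975 was left out by the 1 FPKM filter, at 0.85 and 0.06 FPKM, from 56.85 and 4.28 counts.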

Other observations

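The gene nearest to FRS2 in pattern, CNOT2, lies near it on chromosome 12, with 14 entries of the RefSeq table between them, 2 of which were considered in H1975. CNOT2 had 18.1 and 27.3 FPKM in sensitive and resistant H1975 and 30.8 and 28.9 FPKM in HCC827, so its log2 ratios of 0.60 and −0.15 stand beside 0.60 and −0.17 for FRS2. This look at the region was chosen after the values were seen. Of the 8 considered genes around FRS2 in H1975, the median log2 ratio was 0.51, from −0.25 for KCNMB4 to 1.06 for YEATS4, which alone was called; CCT2 had 0.73 and MDM2 0.65. In HCC827 the 8 considered neighbours had a median of −0.06, from −0.87 for RAB3IP to 1.47 for BEST3, which alone was called from 11 and 32 counts. BEST3 passed the filter only through the resistant library.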
